A study of Kluyveromyces marxianus and Kluyveromyces lactis with 30 samples.

Results

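Cultures of the yeast Kluyveromyces marxianus, strain Km31, grown with methyl methanesulfonate (MMS) were compared directly with cultures of the same strain grown with caffeine. The comparison rests on 6 of the 30 libraries in the series, 3 labelled MMS and 3 labelled caffeine, chosen by their labels alone. The 3 unstressed control libraries of the strain, grown at 28C, took no part in the test and serve only to place the groups, and 3 heat libraries at 39C are used as a further reference point. The series also holds cultures of K. lactis strain yLB72 and ethanol cultures of both species. The measurement was sequencing of poly(A)-captured RNA, with 3 biological replicates a group per the series description. The labels say that cells were collected at a set range of culture densities. They give no dose, duration or growth temperature for MMS or caffeine, so the size of a difference belongs to these cultures and not to the agents at a known strength.

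MMS transfers methyl groups to DNA bases. In baker's yeast the damaged bases are removed by base excision repair, and lesions that block replication forks activate the Mec1 and Rad53 checkpoint kinases, which raise genes for nucleotide synthesis and repair. Caffeine acts elsewhere: in baker's yeast it inhibits the TORC1 kinase, which couples nutrients to ribosome production, and it activates the cell wall integrity kinases. Whether the K. marxianus counterparts of those genes moved cannot be read from these files, because the 5207 gene IDs carry no gene names and 0 of them were found in the reference gene table. At most 2 IDs per direction are therefore printed, without a function, and the remaining genes are described by counts, levels and position.

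The gene totals ran, in units of 1e6 counts, from 18.9 to 39.1 in the MMS libraries and from 15.99 to 29.5 in the caffeine libraries. Any 2 libraries of different treatments differed by 0.915 to 0.944 in root mean square log2 level, while MMS libraries differed among themselves by 0.124 to 0.187 and caffeine libraries by 0.134 to 0.246. Caffeine replicate 2, the shallowest library, was the farthest from the other caffeine libraries. It also stood apart in the placement of reads along genes. In 44 genes with several coding parts, the median log2 ratio of first to last part, per base, was -1.86 in caffeine replicate 2 against -1.11 and -1.18 in replicates 1 and 3 and -1.14 to -0.90 in MMS. Over all 3 libraries a group that ratio was -1.04 ± 0.121 in MMS and -1.39 ± 0.413 in caffeine (SD, n = 3; exact permutation p = 0.2, and 0.2 after Benjamini-Hochberg adjustment over the 6 library-level values tested here). The difference of 0.35 became 0.11 without caffeine replicate 2 and 0.22 in the 32 genes whose parts held at least 30 counts. A low ratio was not particular to caffeine, since heat replicate 2 stood at -1.89. Values without caffeine replicate 2 are given below for the counts of genes past 2-fold and for 2 of the genes printed by ID. For several other results only the range over dropped single libraries is given.

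The transcriptomes of the MMS and caffeine cultures differed at most genes. Of 5080 genes tested, 3566 (70.2%) differed by edgeR's quasi-likelihood test at an adjusted p under 0.05. MMS was higher for 1759 of them (34.6%) and caffeine for 1807 (35.6%). Most of these differences were small: the median fold among called genes was 1.51, and 2663 were called at under 2-fold. At 2-fold or more there were 903 genes (17.8%), of which 379 (7.46%) were higher in MMS and 524 (10.3%) higher in caffeine. In all 903 the 3 MMS libraries lay wholly on one side of the 3 caffeine libraries, as they did in 74.3% of all genes tested. Without caffeine replicate 2 the 2-fold counts were 389 and 527.

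**Figure D1:**
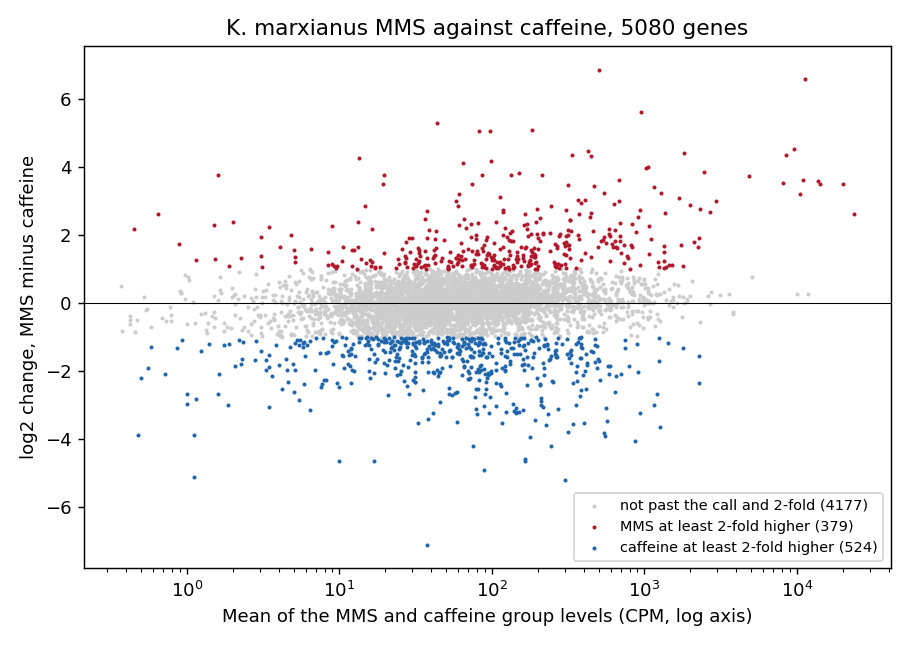
The log2 change of each of 5080 genes (MMS minus caffeine, vertical axis) is plotted against the mean of its MMS and caffeine levels in CPM (counts scaled to 1e6 per library after TMM scaling; log axis). Red points are the 379 genes called at 2-fold or more higher in MMS and blue points the 524 higher in caffeine; the highest red points include several of the most abundant genes, at the right.

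The count in each direction depends on how libraries are put on a common scale, since the most abundant genes take a very different share of the 2 kinds of library. Values here use trimmed-mean (TMM) scaling, which holds the typical gene level, with a median log2 change over all genes of -0.01. Scaled by total gene counts alone, an alternative added after the data were seen, the median moved to -0.52. Then 627 genes were called higher in MMS and 3585 in caffeine, so that the MMS share of calls went from 49.3% to 14.9%. All 903 genes past 2-fold were also called there in the same direction, though not all at 2-fold.

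Large differences were far fewer. At 4-fold or more 116 genes were higher in MMS and 148 in caffeine, at 8-fold or more 46 and 48, and at 16-fold or more 16 and 11. At 32-fold or more there were 10 genes. Few of these folds rest on low counts: under 30 counts over the 3 libraries of either group were found for 11 of the 264 genes at 4-fold or more and for 1 gene at 16-fold or more. At the 2-fold edge the smallest fold inside was 2.00 and the largest called fold outside was 1.995, so the threshold cuts a continuous range. Genes near 0 with 1 agent and well read with the other were nearly absent: 1 gene, KM020H02340 described below, had at least 10 CPM in every caffeine library and under 1 CPM in every MMS library, and 0 genes showed the reverse.

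Set against the 28C controls, most of these genes had moved in caffeine. Among the 903 genes, 502 (55.6%) had only the caffeine level at least 2-fold from control, 119 (13.2%) had only the MMS level that far, 52 had both in opposite directions, 32 both in the same direction and 198 neither. These placements share the same 3 controls. In the same classes, 15.6% of all tested genes had only caffeine that far and 4.67% only MMS. Another 1.02% had both in opposite directions, 4.82% both in the same direction and 73.9% neither. The 1.02% are the same 52 genes, since 2-fold on each side of control builds in a large direct fold. A gene past 2-fold in the direct test also has less room to fall under neither. The shares of these classes thus differ from background partly by construction. Whatever the other agent did, 21.5% of all tested genes lay at least 2-fold from control in caffeine and 10.5% in MMS. A larger caffeine share is thus already present in that background. By direction, 12% lay above and 9.45% below control in caffeine, and 5.63% above and 4.88% below in MMS. The split among the classes depends on the distance used, and it was not rerun with total-count scaling. With an edgeR call against control in place of a 2-fold distance, 209 genes had only caffeine called, 61 only MMS, 219 both in the same direction and 413 both in opposite directions. Measured without a threshold, the control mean was nearer to MMS than to caffeine in 86.8% of the genes higher in MMS and in 67.0% of those higher in caffeine, against 61.5% of all genes tested.

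**Figure D2:**
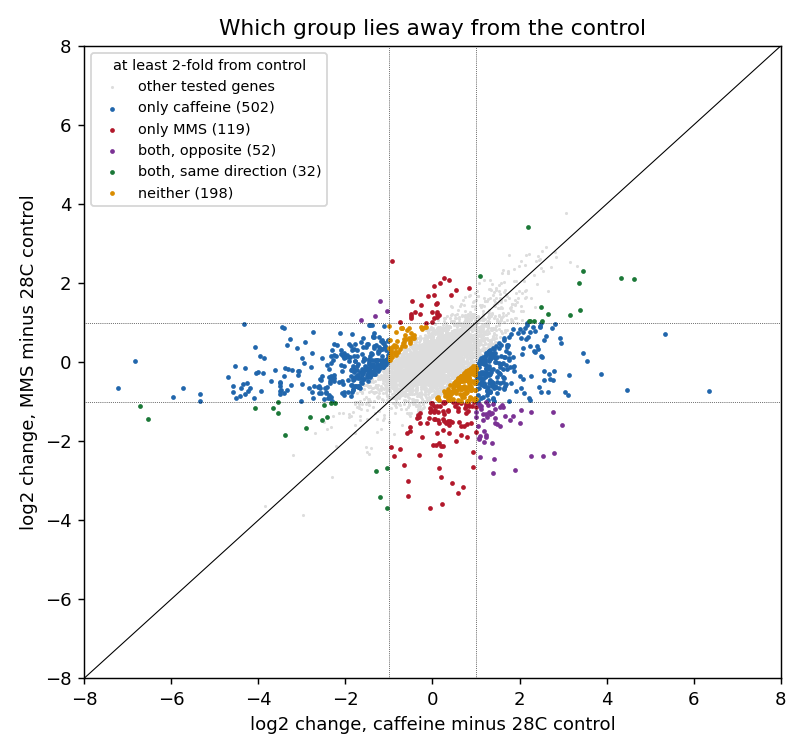
The log2 change of MMS against the 28C control (vertical axis) is plotted against that of caffeine (horizontal axis) for each tested gene, with dotted lines at 2-fold and the diagonal where MMS and caffeine are equal. Colours give the class of the 903 genes past 2-fold in the direct test: most are blue points spread along the horizontal axis (502, only caffeine away from control), and the 48 genes lower in MMS and higher in caffeine than control sit at the lower right.

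With TMM scaling, the genes higher in MMS were mostly genes whose caffeine level lay below control. Of those 379 genes, 282 (74.4%) had only caffeine at least 2-fold below control, with a median log2 change of -1.82 in caffeine and -0.15 in MMS. In another 14 both agents lay below control, caffeine farther. A rise in MMS alone accounted for 28 genes (7.39%), with a median log2 change of 1.36 in MMS and 0.04 in caffeine, and 4 had MMS above and caffeine below control. Those 282 genes held 38.8%, 38.9% and 38.6% of gene counts in the MMS libraries and 8.43%, 8.25% and 7.56% in the caffeine libraries, against 45.0% to 48.3% in controls. These shares describe genes chosen by their difference and are given without a test.

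The genes higher in caffeine were more mixed. Of the 524, 220 (42.0%) had only caffeine at least 2-fold above control, with a median log2 change of 1.45. In 91 (17.4%) only MMS lay that far, below control, with a median log2 change of -1.49. In 48 (9.16%) MMS lay below and caffeine above control. The opposite pattern, MMS above and caffeine below control, held for 4 genes, as given above. The remainder comprised 12 genes above control in both, 4 below control in both and 149 that passed 2-fold only as the sum of smaller distances on either side of the control.

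The 48 genes with MMS below and caffeine above control stood a median of 7.86-fold apart. The class requires at least 2-fold on each side of control, so a direct fold near 4 or more is built in. For 47 of the 48 genes the fold ran from 4.41 to 30.03. The fitted value of the other gene, 34.5-fold, rests on 1, 2 and 2 counts in the MMS libraries against 120, 29 and 64 in caffeine, so its size is poorly determined. Among the 47, another 3 had under 30 counts over the libraries of a group. Over all 48 genes the median log2 change against control was -1.40 in MMS and 1.36 in caffeine. Against control each of the 48 was called in both agents by edgeR, which the required distance makes likely. Of the 48, 3 overlap another annotated gene. Mean control levels of the 48 ran from 0.319 to 719 CPM with a median of 54.9, so they covered weakly and strongly read genes. In the heat libraries 30 of the 48 had a mean above the control mean and 18 a mean below it.

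The 4 genes printed by ID have the largest direct change in their direction and class among genes that overlap no other gene. Each is annotated as 1 coding part on the minus strand. KM020G03810 (chromosome 7, 770030 to 771929) is the one raised in MMS. It stood at 140, 138 and 131 CPM in the MMS libraries, at 14.7, 7.21 and 13.4 CPM in caffeine and at 23.4, 17.5 and 28.0 CPM in controls. All 3 MMS libraries lay above every control, and all 3 caffeine libraries lay below every control. The direct difference was 11.3-fold, a log2 change of 3.50 ± 0.20 (SE; edgeR adjusted p = 2.54e-07), and 3.27 without caffeine replicate 2. Against control MMS was 5.93-fold higher (edgeR adjusted p = 2.93e-07) and caffeine 1.91-fold lower (0.0014). The heat libraries held 36.4, 103 and 84.3 CPM, between the control and MMS libraries.

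KM020C00500 (chromosome 3, 94512 to 96370) is the one lowered in caffeine. Its level was 987, 999 and 1000 CPM in MMS, 8.66, 8.04 and 8.94 CPM in caffeine, and 985, 1063 and 867 CPM in controls. The MMS libraries lay within the range of the controls, and the caffeine libraries were far below both. The direct difference was 116-fold, a log2 change of 6.85 ± 0.08 (SE; edgeR adjusted p = 5.47e-11). Against control MMS differed by 1.02-fold (edgeR adjusted p = 0.698). The heat libraries were spread widely, at 178, 628 and 454 CPM, all below the controls and above caffeine.

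KM020F00310 (chromosome 6, 48041 to 49284) is the one lowered in MMS. The MMS libraries held 45.9, 80.4 and 78.1 CPM, the caffeine libraries 1213, 772 and 1095 CPM, and the controls 662, 533 and 853 CPM. Caffeine replicate 2 fell inside the control range, while replicates 1 and 3 lay above it, and the MMS libraries were all lower than the lowest control. The direct log2 change was -3.91 ± 0.24 (SE; edgeR adjusted p = 3.8e-07), 15.1-fold lower in MMS, and -4.07 without caffeine replicate 2. Against control MMS was 9.98-fold lower (edgeR adjusted p = 1.67e-07) and caffeine 1.5-fold higher (0.0263). Heat also lay below the controls, at 376, 208 and 264 CPM.

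KM020H02340 (chromosome 8, 497637 to 498674) is the one raised in caffeine, and it is the gene with the deepest negative direct change. Caffeine libraries held 71.3, 71.3 and 82.1 CPM. MMS libraries held 0.477, 0.612 and 0.509 CPM, which rest on 9, 23 and 13 counts, and controls 1.31, 0.566 and 0.825 CPM. MMS and control libraries overlapped near the bottom of the measured range, and caffeine stood apart from both. The direct log2 change was -7.09 ± 0.13 (SE; edgeR adjusted p = 2.61e-10), 136-fold, and against control MMS was 1.65-fold lower without passing the test (edgeR adjusted p = 0.0575). Heat libraries held 3.33, 3.97 and 3.75 CPM, above every control.

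**Figure D3:**
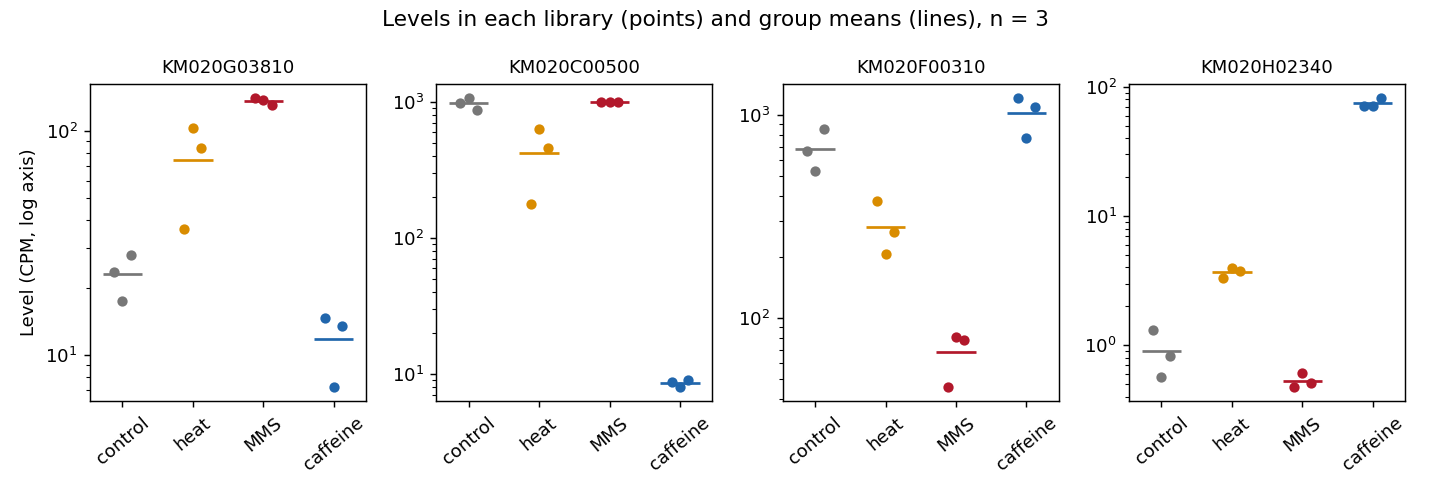
Levels of the 4 genes printed by ID in each control, heat, MMS and caffeine library (points; CPM, log axis), with the mean of each group as a line (n = 3). From left to right the gene is set apart by a high MMS level (131 to 140 CPM), a low caffeine level (8.04 to 8.94 CPM), a low MMS level (45.9 to 80.4 CPM) and a high caffeine level (71.3 to 82.1 CPM).

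The genes most read in unstressed cells carried much of the contrast. The 10 genes with the highest control levels were all called at 2-fold or more higher in MMS, as were 7.46% of all genes tested, with a median log2 change of 3.55 and a range of 2.62 to 6.57. All 10 had a log2 change below 0 against control in both agents, with medians of -0.77 in MMS and -4.37 in caffeine, and in each only caffeine was at least 2-fold away. Together they held 23.3%, 24.0% and 23.5% of gene counts in the MMS libraries against 3.26%, 3.07% and 2.61% in caffeine. The groups did not overlap, and the exact permutation p was 0.1 (2-sided, n = 3 a group), the smallest that 3 libraries against 3 allow, or 0.12 after adjustment over the 6 values. Over the 100 most read control genes the share was 43.5% ± 0.589 in MMS and 19.7% ± 0.751 in caffeine (SD, n = 3; exact permutation p = 0.1, adjusted 0.12). Of these 100 genes, 52 were at least 2-fold higher in MMS and 3 in caffeine, against 7.46% and 10.3% of all genes tested. Their median log2 change of 1.05 was 0.53 with total-count scaling. The controls chose these genes, and the compared libraries did not. That choice is still not neutral between the agents. Genes picked for a high control level tend to lie lower elsewhere, more so in a group farther from control. Of the 100 genes, 86 had a log2 change below 0 against control in both agents.

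Reads were spread over more genes in caffeine. It took 393, 407 and 425 genes to hold 50% of gene counts in the caffeine libraries and 159, 147 and 157 in the MMS libraries, against 63 to 84 in controls (exact permutation p = 0.1, adjusted 0.12). Reads outside annotated features were also a larger share in caffeine: they made up 7.23%, 7.75% and 7.06% in caffeine, 4.88%, 4.63% and 4.75% in MMS and 4.56% to 4.92% in controls. The 2 values did not move together across groups. Heat libraries took 140 to 176 genes, a range that holds the MMS values, but had 5.83% to 5.99% of reads outside features. Every caffeine library lay above every MMS library (exact permutation p = 0.1, adjusted 0.12). The part of these reads in the gene results was not tested.

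**Figure D4:**
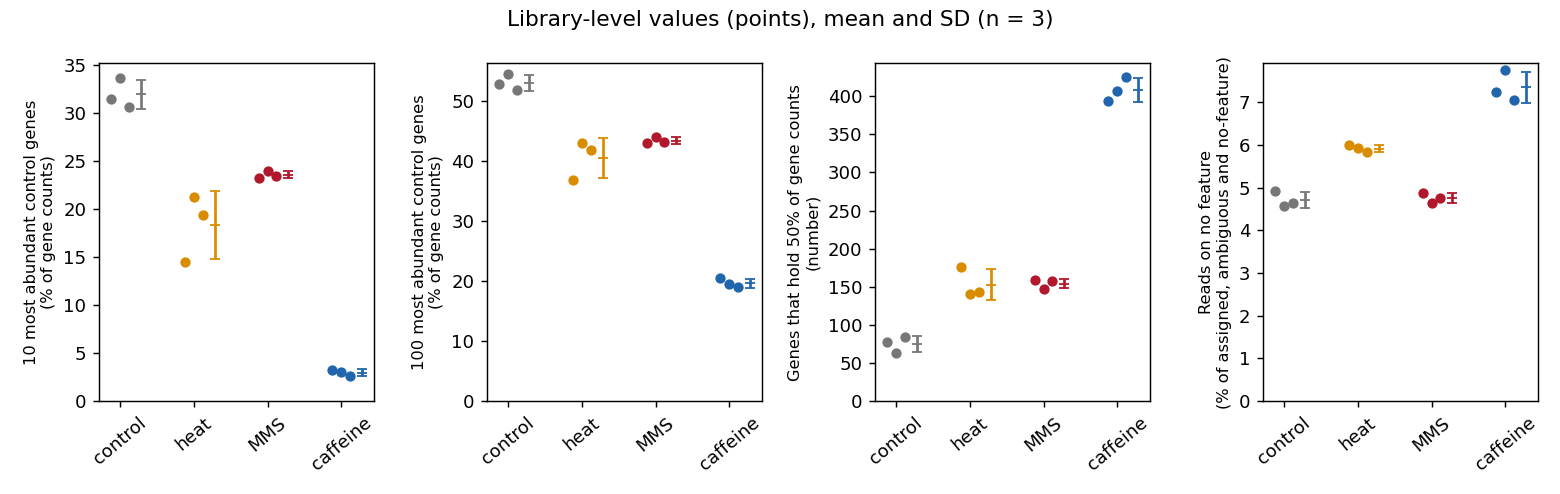
Library-level values for each K. marxianus control, heat, MMS and caffeine library (points), with the mean and SD beside them (n = 3). Caffeine stands apart from MMS in all 4 panels, with a low share for the most read control genes, more genes holding 50% of the counts, and more reads on no feature.

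The direct change followed the control level across the whole range. Genes were split into quartiles of 1270 by mean control CPM. In the highest quartile 227 genes (17.9%) were at least 2-fold higher in MMS and 113 (8.90%) in caffeine, with a median log2 change of 0.23. In the lowest quartile the balance was the other way, with 44 (3.46%) higher in MMS and 188 (14.8%) higher in caffeine and a median of -0.22. The quartiles between had medians of -0.10 and 0.02. Both agents compressed the range relative to control, caffeine by more: the median against control was -0.19 in MMS and -0.38 in caffeine in the highest quartile, and 0.17 and 0.45 in the lowest. Some of each change against control is built in, because the controls define the quartiles. The control values do not enter the direct change, but that choice still bears on it. A group farther from control, here caffeine, can be shifted more by it at both ends of the range. How much of the direct trend comes from that choice was not tested. Across genes Spearman's rho between control CPM and the direct log2 change was 0.26 over 5080 genes, which are not independent replicates. With total-count scaling the median of the highest quartile went from 0.23 to -0.28, so its direction flips, while it stayed above the -0.52 of all genes.

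**Figure D5:**
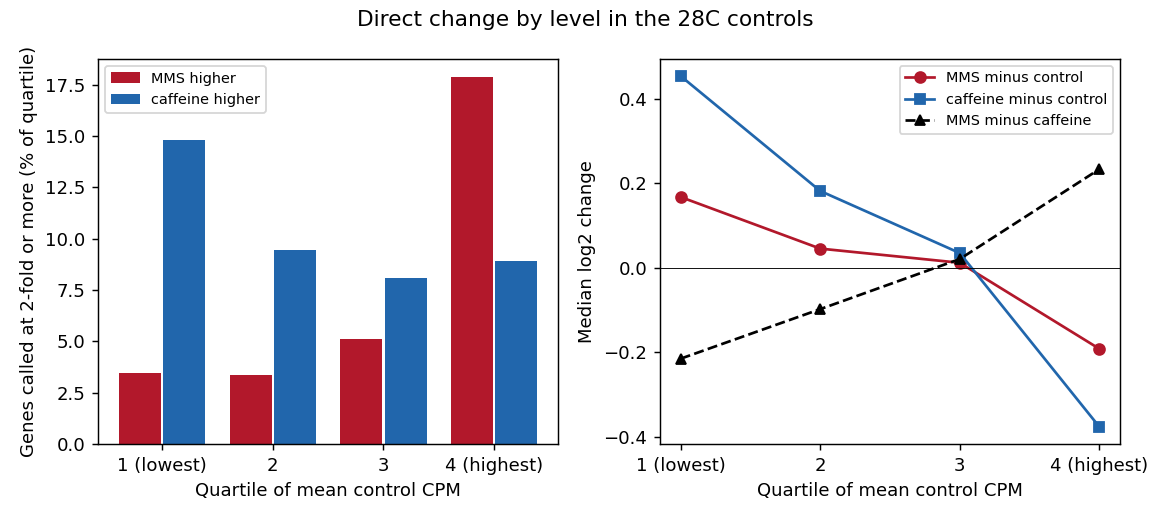
Left, percent of genes in each quartile of mean control CPM called at 2-fold or more higher in MMS (red) or in caffeine (blue). Right, the median log2 change of each quartile for MMS and caffeine against control and for MMS against caffeine; the direct median climbs from -0.22 in the lowest quartile to 0.23 in the highest.

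Genes near chromosome ends are often strain-specific or silenced in yeasts, and genes in several coding parts are the minority with introns. Of 95 tested genes on chromosomes 1 to 8 within 20 kb of the sequence start or of the end of the last annotated gene, 18 (18.9%) were at least 2-fold higher in MMS and 11 (11.6%) in caffeine, against 7.46% and 10.3% of all genes tested. Their median log2 change was -0.02, against -0.01 over all genes, and 0.18 for the 38 genes within 10 kb. The 140 tested genes with more than 1 coding part had 9 at least 2-fold higher in MMS and 6 in caffeine (10.7% together against 17.8%). Their median log2 change was 0.12, which turned to -0.39 with total-count scaling. In the 265 genes that overlap another gene, whose reads cannot be fully assigned, 16 (6.04%) were at least 2-fold higher in MMS and 19 (7.17%) in caffeine. Together these were 13.2%, against 17.8% of all genes tested. None of these differences between a group and all genes was tested.

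The genes past 2-fold were spread over the genome, from 16.2% of tested genes on chromosome 3 to 20.5% on chromosome 5. By length, 20.5% of the genes in the shortest quartile (66 to 852 bases) and 13.7% of those in the longest (2136 to 15404 bases) passed 2-fold. The direct log2 change itself hardly followed length, with a Spearman's rho of -0.05 across 5080 genes.

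Some changed genes lay side by side. Of 885 genes past 2-fold on chromosomes 1 to 8, 78 (8.81%) fell in 24 runs of at least 3 neighbours that changed in the same direction, 9 runs higher in MMS and 15 higher in caffeine, and the longest held 4 genes. On chromosome 1, from 466927 to 472716, 3 neighbours were higher in caffeine, of which 1 is the gene with 1, 2 and 2 MMS counts described above and the others were 3.50-fold and 11.3-fold higher. On chromosome 4, from 1057452 to 1062482, 4 neighbours were 2.07-fold to 11.1-fold higher in caffeine, 2 with only MMS and 2 with only caffeine away from control. On chromosome 5, from 218892 to 224158, 3 neighbours were 3.13-fold to 13.6-fold higher in MMS, and on chromosome 2, from 1473150 to 1479791, 4 neighbours were 2.45-fold to 5.12-fold higher in MMS. In both of the last 2 runs every gene had only caffeine at least 2-fold from control. No gene of these 4 runs overlaps another. They are examples from the 24. Whether the runs outnumber those that would arise without any link between neighbours was not tested.

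The heat libraries, which entered neither the test nor the placement, lay nearer to MMS than to caffeine in mean log2 level for 56.3% of all tested genes. For the 502 genes where only caffeine was away from control the share was 71.1%, and for the 119 genes where only MMS was away it was 38.7%. The choice of these classes bears on both shares: the control mean was nearer to MMS in 100% of the 502 and 0% of the 119. Any group near control would shift in the same way, so the 2 shares do not show that heat resembles either agent. Tested in the same way on 6 libraries, MMS and heat differed at 2553 genes (50.3%), with 536 at 2-fold or more (10.6%). Caffeine and heat differed at 2937 (57.8%), with 735 at 2-fold or more (14.5%). These contrasts share libraries with the MMS to caffeine contrast, which had the highest of the 3 counts, and the differences between the counts were not tested.

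The same contrast in K. lactis gave counts of a like size. Between its 3 MMS and 3 caffeine libraries 3179 of 5082 genes differed (62.6%), 929 of them at 2-fold or more (18.3%), with 335 higher in MMS (6.59%) and 594 higher in caffeine (11.7%). Without K. lactis MMS replicate 3 the calls were 3893, and the lowest count without 1 library was 2617. Genes of the species are not paired in the files, so whether the same genes separate the agents in both yeasts was not tested.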

How the data were processed

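Poly(A)-captured RNA was sequenced, and the authors deposited raw counts per coding part, with no normalization. TopHat and HTSeq are the tools in the submitters' processing notes. Versions, genome build and strand use are not given in the sources used here, so overlapping, antisense and near-identical genes are uncertain. Coordinates and lengths came from an ethanol file, counted with featureCounts 1.6.3 per the file headers; no ethanol count was used. Parts were summed to 5207 genes. Reads on no feature (4.63% to 7.75% of assigned, ambiguous and unassigned reads in MMS and caffeine) and ambiguous reads (1.13% to 1.48%) stayed out.

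The 6 libraries were fitted in edgeR 4.0.16 (R 4.3.3) with group as the only term, filterByExpr, TMM scaling, 2-sided tests and Benjamini-Hochberg adjustment over 5080 genes. The other 127 genes, 77 of them without a count, failed the filter. Distances from control came from a like fit with the 3 controls. Printed CPM use TMM factors over 12 libraries, and shares use raw totals. SE derives from the F statistic. Heat position used log2(CPM + 0.5). Single library values were tested by exact permutation (scipy 1.17.1).

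Genes printed by ID passed an adjusted p of 0.05, 2-fold, 10 CPM in the higher group, separated libraries and no overlap; 344 genes higher in MMS and 451 higher in caffeine did. The comparison, lists and rules were chosen with earlier results of these data known. Baker's yeast pathway lists could not be applied without names. Replicate numbers did not pair the libraries (correlation of deviations -0.04 to 0.00). No replicates were duplicates: counts differed beyond sampling noise in every within-group pair. The edgeR and DESeq2 1.42.0 steps were tested on simulated counts in which few genes changed, in random directions. That setting lacks the shift in the most abundant genes seen here, so it does not check the scaling. Counting error is small at these depths except in genes of few counts.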

Additional observations from a re-analysis of the deposited data

How the results depend on the processing

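The 2-fold calls varied little with tool, filter or library: all 903 were called in the same direction with RLE, upper-quartile or total-count scaling, DESeq2, no filter and a fit of 12 libraries, and at least 901 without any 1 library. The numbers ran from 3256 to 3727 called genes (1605 to 1855 and 1651 to 1872 by direction) and from 896 to 916 past 2-fold (376 to 389 and 514 to 540) without 1 library. With the replicate number as a block, which the libraries' deviations gave no ground for, 3530 genes were called and 898 passed 2-fold, and in the heat and K. lactis contrasts no count moved by over 1.5 times. Upper-quartile scaling made the MMS share of calls 43.4%. Total-count scaling, added after the data were seen, gave 627 and 3585 calls, 1384 genes past 2-fold (202 and 1182), and medians of -0.52 for all genes, -0.73 and -0.28 for the lowest and highest control CPM quartiles, 0.53 for the 100 most read genes and -0.39 for genes of several coding parts, the last and the highest quartile reversing sign. By its construction it moves every gene in the same direction.

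The placement against control is the least stable result, and it was not rerun with total-count scaling. With a 1.5-fold distance 181 genes were opposite, 116 in the same direction and 11 at neither; with calls the numbers were 61 for only MMS, 209 for only caffeine, 413, 219 and 1. Without 1 library they ran from 113 to 123, 491 to 515, 49 to 64, 28 to 38 and 193 to 205 in the order only MMS, only caffeine, opposite, same direction and neither. Small medians shifted as well: all genes 0.0019, chromosome 5 -0.039 and chromosome 8 -0.068 with RLE scaling, end genes 0.18 at 10 kb, and, for quartiles ranked by control CPM per kb, an alternative added after the data were seen, the lowest, second and highest from -0.22, -0.10 and 0.23 to -0.26, -0.065 and 0.31. Without 1 library the share difference of the 10 genes was 20.4 to 20.8 percentage points, that of reads on no feature -2.73 to -2.39, the difference in coding part ratio 0.11 to 0.48 (0.22 with at least 30 counts a part), and K. lactis gave 2617 to 3893 called genes and 876 to 1093 past 2-fold. The 4 genes printed by ID kept direction and call in all 56 combinations of gene and alternative. With 3 libraries a group, no library-level value can pass 0.05.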
